A study of Mus musculus with 46 samples.

Results

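The genes described here are 10 genes known for their expression in adipocytes, Adipoq, Lep, Cfd, Retn, Plin1, Cidec, Lpl, Fabp4, Thrsp and Pparg, which were 10 of the 48795 Ensembl genes of the expression table. They were chosen because their levels had differed between pieces of tumor, to show how far fat around a tumor could enter the RNA of the piece. Their levels, and the differences between groups that the choice rested on, are therefore given as a description with no test. RNA of bulk tissue was sequenced from 46 samples, of which 43 were subcutaneous tumors grown from MC-38 cells, a mouse colon carcinoma line, and 3 were cultures of those cells. The values are FPKM, the fragments of a gene scaled to the length of its transcript and to the mapped fragments of the sample, so levels can be set side by side between genes. In bulk tissue, fewer cells of a type and less RNA per cell cannot be told apart.

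The 43 tumors fell into 7 groups. The baseline group was 3 tumors whose titles read baseline and name neither a treatment nor a time. Mice of the antibody study received 1 or 2 doses of muDX400, an antibody against mouse PD-1, at 5 mg/kg (PD-1 Ab) or an isotype control antibody, with 5 tumors in each of the 4 groups, taken at day 4 (1 dose) or day 8 (2 doses) of treatment. These times were days 11 and 15 after implantation of the tumor cells, the names used for them here. The conditional knockout study compared 10 tumors labelled PD-1cKO, from ROSA26 creERT2 Pdcd1 fl/fl mice, with 10 tumors of littermates labelled WT. Breeding also gave Pdcd1 fl/fl mice without creERT2, and the alleles of the WT littermates are not given beyond their label. Both of its groups received tamoxifen at 40 mg/kg on 5 consecutive days. The labels give day 28, as do the reported results of the study, counted from implantation, where the methods give day 22. The mice were C57BL/6NTac females of 8 to 10 weeks, which carried the cells under the skin of the right flank. The ROSA26 promoter is active in most tissues, so creERT2 is not limited to T cells. The labels do not say how much tissue around a tumor was taken with it. Tumors are numbered by the replicate numbers of their labels.

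Adipocytes store triglyceride in a large lipid droplet and release hormones, the adipokines, into the blood. The nuclear receptor PPARG, with the C/EBP factors, switches on the genes of this program, which include those for adipokines, for proteins of the droplet surface and for the uptake and synthesis of fatty acids. White fat and the mammary fat pad lie directly under the skin of the flank, macrophages also express Lpl, Fabp4 and Pparg, and capillary endothelium expresses Fabp4.

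Promoter sequence from RefSeq (GRCm38.p6) was found for 8 of the 10 genes, and Lpl and Fabp4 had no entry. The stretch before the transcript start is shown for Adipoq and Lep, a pair of hormones whose median ratio differed between studies. It is also shown for the droplet protein gene Plin1, and for Pparg at a start site that lies downstream of its first. Capitals mark matches to the C/EBP motif TTGCNNAA. For Plin1 only 123 of the 250 bases before the start are shown, the part farther from it. A second match, 58 bases before the start, lies in the part left out.
Adipoq, chr16:23146286-23146535, plus strand: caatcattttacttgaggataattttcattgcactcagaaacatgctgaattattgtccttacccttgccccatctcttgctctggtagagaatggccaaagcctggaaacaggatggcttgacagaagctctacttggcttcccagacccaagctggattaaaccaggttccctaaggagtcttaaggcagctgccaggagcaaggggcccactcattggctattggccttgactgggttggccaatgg
Lep, chr6:29059971-29060219, plus strand: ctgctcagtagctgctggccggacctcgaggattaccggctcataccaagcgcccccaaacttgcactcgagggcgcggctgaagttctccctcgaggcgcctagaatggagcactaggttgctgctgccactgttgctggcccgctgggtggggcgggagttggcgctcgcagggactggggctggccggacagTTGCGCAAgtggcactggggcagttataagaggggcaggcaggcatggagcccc
Plin1, chr7:79732904-79733026, minus strand: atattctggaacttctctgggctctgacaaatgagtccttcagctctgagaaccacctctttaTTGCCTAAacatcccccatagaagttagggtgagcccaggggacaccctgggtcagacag
Pparg, chr6:115421816-115422065, plus strand: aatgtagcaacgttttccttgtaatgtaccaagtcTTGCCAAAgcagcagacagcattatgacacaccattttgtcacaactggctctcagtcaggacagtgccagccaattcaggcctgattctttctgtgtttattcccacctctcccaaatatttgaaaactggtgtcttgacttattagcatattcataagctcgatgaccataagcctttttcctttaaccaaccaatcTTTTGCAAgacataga

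The windows searched ran from 250 bases before to 50 bases after each start, on both strands. The C/EBP motif was in 4 of the 8 genes, Lep, Plin1, Pparg and Cidec, and in 9.56% of all 32851 promoters of the table. The 8 genes have 11 promoters there, with more than 1 for Pparg and Cidec. A gene counts if any of its promoters matched, while the shares are per promoter, so the figures are not directly comparable. The nuclear receptor half-site AGGTCA was in windows of Pparg only among the 8 genes, against 14% of all promoters, and its direct repeat AGGTCANAGGTCA was in none of them, against 0.0335%. The TATA box TATAAA was in 1 window of Pparg (12.4% of all promoters), and the E-box CACGTG in none (6.02%). These are matches of letters in short windows and show neither binding nor its absence.

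The 10 genes are spread over 6 chromosomes (GENCODE vM21, GRCm38). Among the adipokines, Adipoq (ENSMUSG00000022878) lies at chr16:23146536-23158028, Lep (ENSMUSG00000059201) at chr6:29060220-29073877, Cfd (ENSMUSG00000061780) at chr10:79890853-79892655 and Retn (ENSMUSG00000012705) at chr8:3655770-3660110. The droplet genes are Plin1 (ENSMUSG00000030546, chr7:79720218-79732903) and Cidec (ENSMUSG00000030278, chr6:113424634-113435760). Lpl (ENSMUSG00000015568) lies at chr8:68880491-68907448, Fabp4 (ENSMUSG00000062515) at chr3:10204088-10208576, Thrsp (ENSMUSG00000035686) at chr7:97412938-97417730 and Pparg (ENSMUSG00000000440) at chr6:115360951-115490399. Reads of these genes had little room for misassignment, since at most 1.14% (Lpl) of the 50-base stretches of their transcripts occur in another gene.

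The depth behind the values was read from genes with a single transcript, whose lowest FPKM values repeat at whole multiples of 1 fragment. In units of 1000000 fragments it came to between 8.22 and 55.3 per sample, with a median of 19.2. The knockout study held 17.6 to 55.3 of these units per tumor. The antibody study held 8.22 to 12.8, apart from isotype control tumor 1 of day 11, at 30.6. That 30.6 and the 17.6 of tumor 7 labelled PD-1cKO are less certain. Only 56.4% and 38.3% of their low values lay near a whole fragment, against a median of 81.5% per sample. That isotype control tumor had 54.6% of its FPKM in mitochondrial genes, against 0.169% to 7.65% in the other samples. Pdcd1, the targeted gene, was at 5.05 to 19.9 FPKM in the tumors labelled PD-1cKO and at 1.71 to 7.02 FPKM in WT tumors, so it was not lower under the PD-1cKO label. The deletion removes an inner part of the gene and leaves other exons that count toward its FPKM, so these values do not check it.

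The cultured tumor cells were read first, to show which of the 10 genes the tumor cells make themselves; genes of other host cells, such as all 8 macrophage genes listed, were likewise higher in tumors than in culture. Adipoq (adiponectin), Lep (leptin), Cfd (adipsin), Retn (resistin), Plin1, Cidec and Pparg were each at 0 FPKM in all 3 cultures. A count of 0 there allows up to 3 fragments per library, and against the highest such limit of the 3 cultures the mean of the 5 isotype control tumors of day 15 was at least 39.3-fold higher for Adipoq, at least 263-fold for Cfd, at least 41-fold for Cidec and at least 5.83-fold for Lep. For Plin1, Pparg and Retn the corresponding bounds were 31.3-fold, 18.8-fold and 18.2-fold. These limits cover counting error only.

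The 3 other genes had fragments in culture. Lpl, which frees fatty acids from circulating triglyceride, was at 0.667, 0.928 and 0.638 FPKM in the cultures and at 7.66 to 10.5 FPKM in the isotype control tumors of day 15, a difference of 3.48 (SE 0.16) between means of log2(FPKM + 0.1), the scale of all differences here. Fabp4, an intracellular carrier of fatty acids, was at 0.484, 0.42 and 0.182 FPKM in culture and at 8.26 to 50.2 FPKM in those tumors, a difference of 6.15 (SE 0.58). Thrsp, a nuclear protein tied to the synthesis of fatty acids, was at 0.0774, 0 and 0.0588 FPKM in culture and reached 4.09 FPKM. The isotype control tumors of day 15 lay above the cultures without overlap for 9 of the 9 genes above the filter of a mean of 0.5 FPKM, against 26.3% of all 15199 genes tested, and 8 of the 9 passed both call limits (adjusted p under 0.01 and at least 2-fold in limma), against 14.2% of all genes higher. Lep was below that filter. Since the genes were chosen on these samples, nothing is read from the comparison of these shares.

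**Figure D1:**
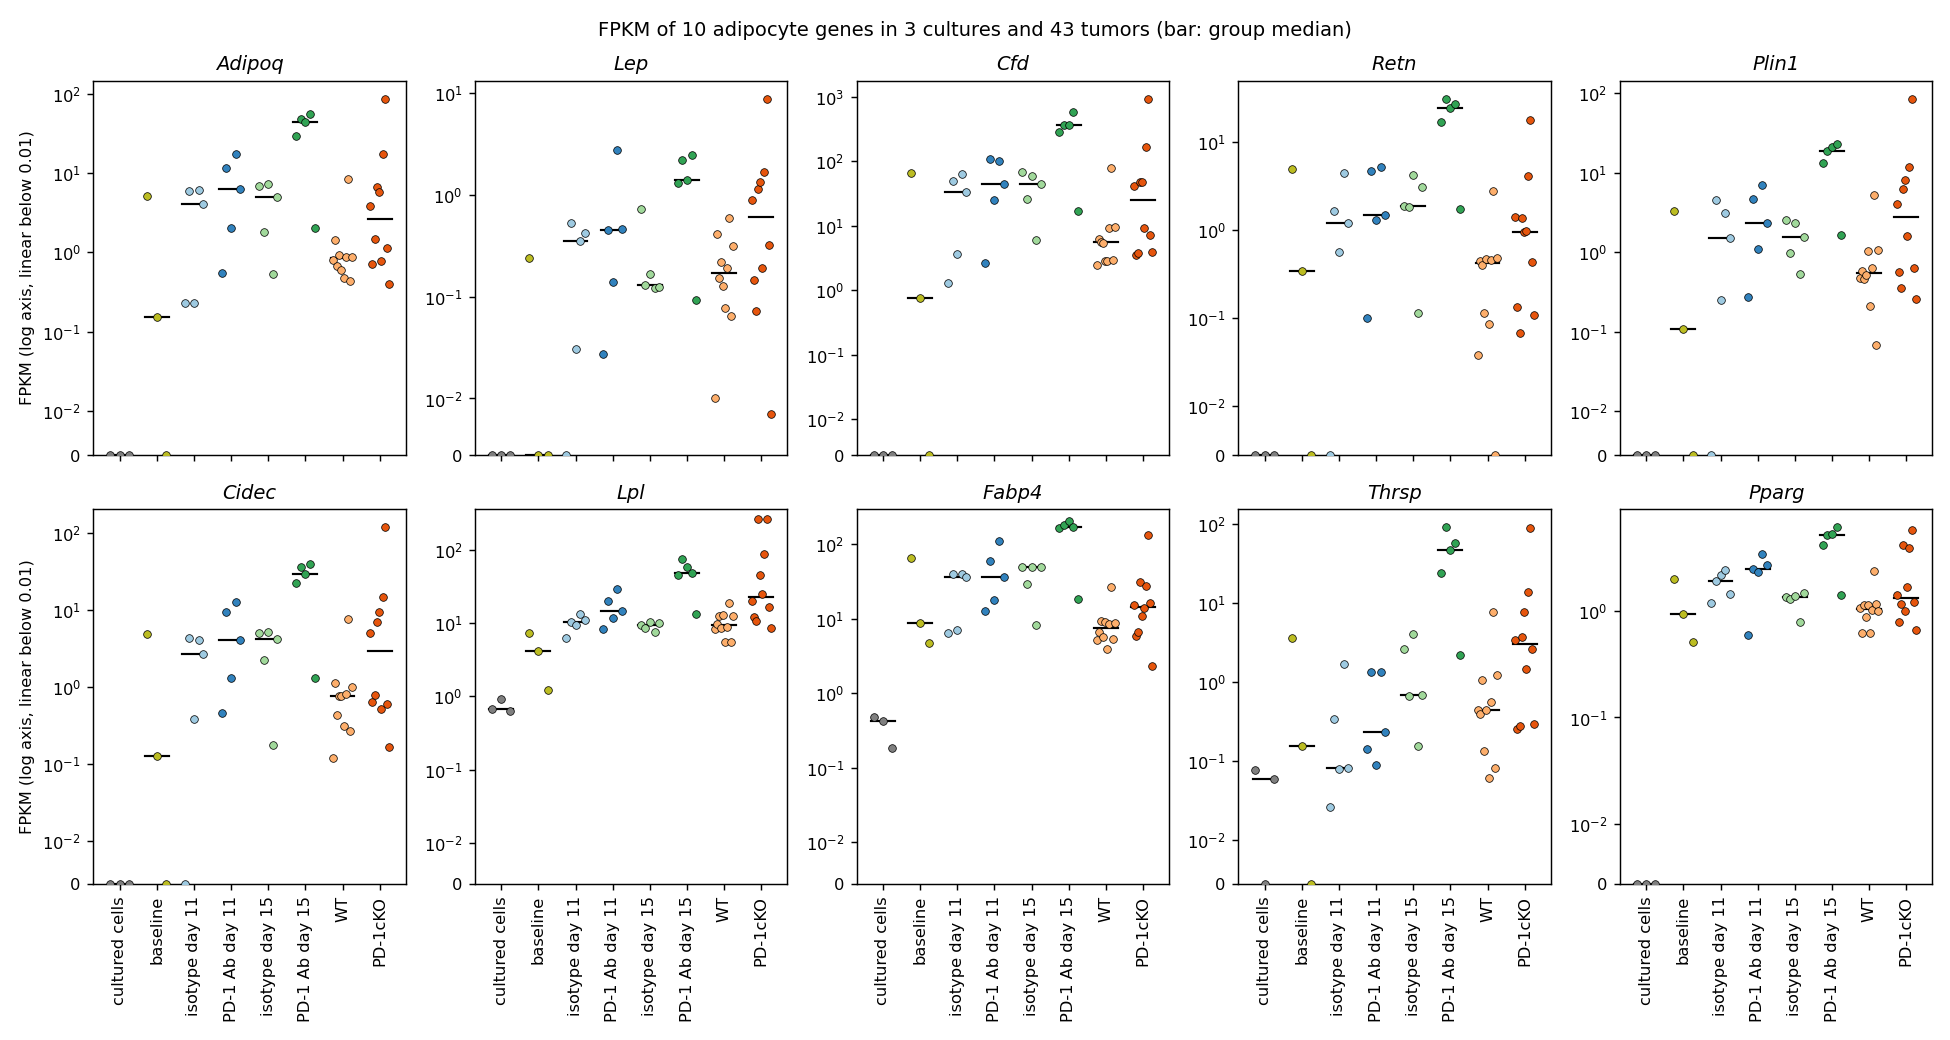
FPKM of the 10 adipocyte genes (log axis, linear below 0.01) in each sample of the 8 groups, with 1 point per sample and a bar at the group median; the last 2 groups are WT tumors and tumors labelled PD-1cKO. The cultures are at or near 0, PD-1 Ab tumors of day 15 hold the highest median for all 10 genes with 1 tumor far below the other 4, and tumor 8 labelled PD-1cKO holds the highest level of the 46 samples for 5 of the 10 genes.

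Summed over the 10 genes, the level spanned more than 2 orders of magnitude among tumors. The sum had a median of 119 FPKM (range 24.3 to 147) in isotype control tumors of day 15 and of 795 FPKM (59.1 to 1010) in PD-1 Ab tumors of day 15. At day 11 it was 91.2 FPKM (15.4 to 139) with isotype control and 113 FPKM (25.9 to 292) with PD-1 Ab. The 3 baseline tumors were at 6.52, 15.6 and 164 FPKM, so that 1 baseline tumor lay above every isotype control tumor.

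In the knockout study the sum had a median of 28.4 FPKM (14.2 to 158) in WT tumors and of 75.6 FPKM (16.7 to 1729) in tumors labelled PD-1cKO. As a share of the FPKM of protein-coding genes, the 10 genes held at most 0.0337% in isotype control tumors of day 15 and at most 0.222% in PD-1 Ab tumors of day 15. In tumor 8 labelled PD-1cKO they held 0.634%, the highest of any sample. That tumor also had the highest total FPKM, 1224462, and the part of library make-up in its share was not tested.

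The comparison of both antibodies at day 15 asks what the tumor tissue expressed after the second dose. All 10 genes had higher means with PD-1 Ab, by 1.61 (Pparg) to 4.57 (Thrsp) on the log2 scale, with a median of 2.78 against -0.04 over all 15062 genes tested. Of the 10 genes, 4 passed both call limits, Thrsp, Plin1, Lpl and Pparg, where 5.03% of all genes passed as higher, and this count describes genes chosen on the same contrast. In 9 of the 10 genes, 4 of the 5 PD-1 Ab tumors lay above all isotype control tumors, and PD-1 Ab tumor 5 lay among the controls or, for Lep, below them. With that tumor left out the differences ran from 1.96 to 5.46 (median 3.67) and 10 of 10 genes passed. Leaving out any 1 of the other tumors left between 0 and 2 genes past the limits. Calls over all genes, both directions counted, moved as well, from 375 without PD-1 Ab tumor 3 to 1534 without PD-1 Ab tumor 5.

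Among the adipokines, Adipoq, which raises sensitivity to insulin, was at 6.86, 1.79, 7.25, 0.541 and 5.03 FPKM in isotype control tumors 1 to 5 and at 29.2, 48.5, 43.9, 55.7 and 2.02 FPKM in PD-1 Ab tumors 1 to 5. Thus 4 treated tumors were above every control and tumor 5 was inside the control range. The means were 35.9 ± 21.3 FPKM and 4.29 ± 3.01 FPKM (SD, n = 5 each), a difference of 2.90 (SE 0.92). The PD-1 Ab values rest on 421, 740, 604, 773 and 26 fragments and the control values on 106, 27, 120, 7 and 81.

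Lep, which signals the size of the fat stores to the brain, was at 0.718, 0.131, 0.168, 0.122 and 0.123 FPKM with isotype control and at 1.29, 2.18, 1.41, 2.43 and 0.0925 FPKM with PD-1 Ab, a difference of 1.97 (SE 0.67). Treated tumor 5 was the lowest of all 10 tumors, and control tumor 1 stood apart from the other 4 controls. Only 4 to 7 fragments lie behind each of those 4 control values, so differences among them were not detectable at this depth.

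Cfd, the serine protease that activates complement factor B, had the highest mean with PD-1 Ab of the 10 genes. Its control values were 67, 25.5, 59, 5.95 and 43.8 FPKM, and its treated values 285, 369, 358, 580 and 17 FPKM (difference 2.75, SE 0.92). Retn, a peptide hormone of mouse fat, was at 1.91, 1.86, 4.29, 0.114 and 3.12 FPKM with isotype control and at 16.9, 31.3, 24.7, 27.5 and 1.73 FPKM with PD-1 Ab (difference 3.15, SE 0.90). For both genes the groups overlapped through treated tumor 5 alone.

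Plin1 coats the lipid droplet and gates its breakdown. It was at 2.5, 0.969, 2.29, 0.522 and 1.55 FPKM with isotype control and at 13.4, 18.9, 21.1, 23 and 1.65 FPKM with PD-1 Ab (difference 2.99, SE 0.67). Cidec, which fuses small droplets into a large one, was at 4.98, 2.24, 5.19, 0.176 and 4.23 FPKM and at 22.6, 36.1, 28.8, 39.4 and 1.29 FPKM (difference 2.82, SE 1.00). Again 4 treated tumors were above all controls, and control tumor 4 was the lowest of the controls for both genes.

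Of the genes for fatty acid uptake and transport, Lpl was the only 1 of the 10 genes whose groups did not overlap at day 15, where 9.23% of all genes tested lay higher without overlap. Its control values were 9.39, 8.72, 10.5, 7.66 and 10.2 FPKM and its treated values 45.3, 75.3, 57.9, 49 and 13.3 FPKM (difference 2.17, SE 0.37). Fabp4 was at 49.2, 29.2, 50.2, 8.26 and 49.3 FPKM with isotype control and at 166, 182, 207, 170 and 18.5 FPKM with PD-1 Ab (difference 1.87, SE 0.68). The control values of Lpl differed by less than those of Fabp4, Adipoq or Cfd, which had a low value in control tumor 4.

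Thrsp had the largest difference of the 10 genes and the second largest of all 15062 genes tested. It was at 2.6, 0.657, 4.09, 0.156 and 0.691 FPKM with isotype control and at 23.6, 90.8, 47.2, 56.6 and 2.19 FPKM with PD-1 Ab, a difference of 4.57 (SE 0.98) between means of 1.64 and 44.1 FPKM. Pparg, the transcription factor, was at 1.35, 1.28, 1.37, 0.79 and 1.45 FPKM with isotype control and at 4.11, 5.08, 5.19, 6.04 and 1.41 FPKM with PD-1 Ab (difference 1.61, SE 0.35), the smallest difference of the 10. A transcript on the opposite strand overlaps Pparg, and the kit kept the strand.

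**Figure D2:**
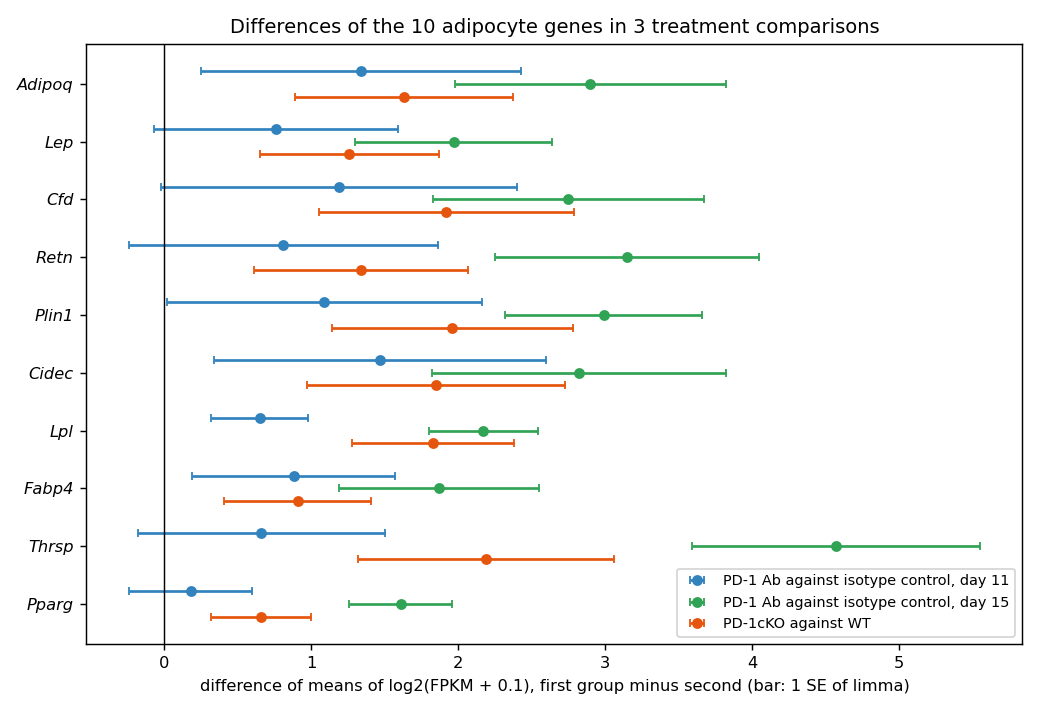
Difference of means of log2(FPKM + 0.1), first group minus second, for each of the 10 genes in 3 comparisons, with a bar of 1 SE of limma. All 10 differences of day 15 exceed 1.6, those of day 11 run from 0.18 to 1.47 and those of the tumors labelled PD-1cKO against WT from 0.66 to 2.19; the genes were chosen on these samples, so the bars carry no test.

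At day 11, after 1 dose, the 10 genes had smaller differences with wide errors. They ran from 0.18 (Pparg, SE 0.42) to 1.47 (Cidec, SE 1.13), with a median of 0.84 against 0.26 over all 14556 genes tested, and 0 of 10 passed the limits, as did 0% of all genes. Median-of-ratios scaling set that median of all genes to 0.01, which turned the sign for Pparg (-0.06) and for none of the other 9 genes. In no gene were the groups without overlap, where 3.59% of all genes lay higher without overlap.

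Adipoq was at 0.228, 5.94, 0.232, 6.09 and 4.13 FPKM in isotype control tumors 1 to 5 and at 0.553, 11.7, 2.03, 17.3 and 6.24 FPKM in PD-1 Ab tumors 1 to 5. Thrsp was at 0.0256, 0.334, 0.0783, 1.68 and 0.082 FPKM with isotype control and at 0.14, 1.33, 0.0895, 1.33 and 0.234 FPKM with PD-1 Ab, so its highest tumor was a control. Both arms of day 11 held tumors with Adipoq below 1 FPKM and tumors above 5 FPKM.

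The sample identifiers of the day 11 tumors fall into runs that share their leading digits, though the numbers are not consecutive. The meaning of these runs is not stated by the labels. Isotype control tumors 1 to 3 form a run of their own, and control tumors 4 and 5 share a run with all 5 PD-1 Ab tumors. Within that shared run the differences of the 10 genes lay between -0.58 and 0.34 with a median of -0.12, and 2 of 10 were above 0, so the difference of day 11 on the log2 scale did not hold against those 2 controls. The mean FPKM within the run was still higher with PD-1 Ab for most of the genes, such as Adipoq (7.56 against 5.11) and Fabp4 (47.7 against 37.9). Without isotype control tumor 1, the tumor of high mitochondrial share, the median fell to 0.37, with Adipoq at 0.74 and Retn at 0.00.

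The difference between the antibody effects of days 15 and 11 was positive for all 10 genes and passed the limits for none of them, and for 0% of all 15289 genes tested. It was largest for Thrsp (3.91, SE 1.33) and Retn (2.35, SE 1.45) and was 1.52 (SE 0.52) for Lpl.

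For tumors labelled PD-1cKO against WT, all 10 genes had higher means in the group labelled PD-1cKO, with a median difference of 1.73 against -0.20 over all 15075 genes tested (-0.04 with median-of-ratios scaling). Of the 10 genes, 0 passed both call limits, where 4.2% of all genes passed as higher. In all 10 genes the groups overlapped, where 0.643% of all genes lay higher without overlap, and between 2 and 6 of the 10 tumors labelled PD-1cKO lay above every WT tumor. The group labelled PD-1cKO was uneven, and its highest levels of Adipoq were in tumors 8, 7, 4 and 5, at 86.2, 17.3, 6.71 and 5.73 FPKM.

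Adipoq had a lowest, median and highest level of 0.433, 0.844 and 8.42 FPKM in WT tumors and of 0.403, 2.64 and 86.2 FPKM in tumors labelled PD-1cKO (difference 1.63, SE 0.74). Leaving out tumor 8 labelled PD-1cKO took the difference of Adipoq to 1.11 and that of Thrsp from 2.19 (SE 0.87) to 1.63. With tumors 4 and 8 left out, a choice made after seeing the data, the differences of the 10 genes ran from 0.29 to 1.51. Tumor 8 rests on 3451 fragments of Adipoq and 882 of Lep, more than any other tumor.

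The droplet genes behaved alike in this study. Plin1 was at 0.0684, 0.55 and 5.23 FPKM (lowest, median, highest) in WT tumors and at 0.255, 2.79 and 84.8 FPKM in those labelled PD-1cKO (difference 1.96, SE 0.82). Cidec was at 0.118, 0.758 and 7.49 FPKM and at 0.167, 2.89 and 118 FPKM (difference 1.85, SE 0.88). In both genes the highest WT tumor was tumor 8 of its group, and 4 (Plin1) or 3 (Cidec) tumors labelled PD-1cKO lay above it.

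Lpl had the lowest error of the larger differences, 1.83 (SE 0.55), with 5.55, 9.41 and 19 FPKM in WT tumors and 8.59, 22.6 and 264 FPKM in those labelled PD-1cKO. Its 2 highest tumors were tumors 4 and 8 labelled PD-1cKO, at 264 and 262 FPKM. Tumor 4 had Adipoq at 6.71 FPKM against 86.2 FPKM in tumor 8, so equal levels of Lpl came with unequal levels of adiponectin. The macrophage genes, 8 markers in all, summed to 4621 FPKM in tumor 4 and 3837 FPKM in tumor 8 labelled PD-1cKO, where WT tumors held 949 to 1585 FPKM, and their part in the level of Lpl was not tested.

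Of the remaining genes, Thrsp reached 89.6 FPKM in tumor 8 and 13.9 FPKM in tumor 7 labelled PD-1cKO, against a WT median of 0.444 FPKM. Cfd (difference 1.92), Retn (1.34), Lep (1.26), Fabp4 (0.91) and Pparg (0.66) had their highest level in tumor 8 too. Pparg had the smallest difference of the 10, as it did at day 15.

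The runs of sample identifiers split this study nearly along its groups, since 7 of the tumors labelled PD-1cKO are alone in a run. In a further run, tumor 8 labelled PD-1cKO lay above the mean of 9 WT tumors by 2.37 to 7.31, in 10 of 10 genes. In the last run, the log2 means of tumors 9 and 10 labelled PD-1cKO differed from the single WT tumor there by -1.35 to -0.08, although tumor 9 on its own was above it for several genes, such as Thrsp (2.64 against 1.22 FPKM). With the run as a covariate all 10 differences were positive and larger than without it, at 1.31 to 4.06 with a median of 3.18. They rest on tumors 8, 9 and 10 labelled PD-1cKO, since the 7 tumors alone in their run do not enter them. Only 1 tumor labelled PD-1cKO or 1 WT tumor stands behind each within-run value, and for the 7 tumors run and genotype cannot be told apart.

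Against the antibody effect at day 15, the effect in the tumors labelled PD-1cKO was smaller for all 10 genes, by 0.34 (Lpl, SE 0.86) to 2.39 (Thrsp, SE 1.50), and no difference passed the limits, which 0.0914% of all 16404 genes did. With the run as a covariate the order turned for several genes, with differences in tumors labelled PD-1cKO of 3.49 for Adipoq, 3.58 for Cidec and 2.71 for Lpl against 2.90, 2.82 and 2.17 at day 15. The days, doses and mice of both studies differ.

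Ordered by group median, PD-1 Ab tumors of day 15 were highest for all 10 genes and the cultures lowest, together with the baseline tumors for Lep. For Adipoq the medians fell from 43.9 FPKM there to 6.24 (PD-1 Ab, day 11), 5.03 (isotype control, day 15), 4.13 (isotype control, day 11), 2.64 (labelled PD-1cKO), 0.844 (WT), 0.155 (baseline) and 0 FPKM (culture). The ranges of neighbours in this order overlapped in 7 of 7 pairs for Adipoq, Cfd, Retn, Plin1, Cidec and Thrsp, in 6 for Lep, Fabp4 and Pparg and in 5 for Lpl. Neighbouring groups were thus not separated beyond their own spread in most pairs. Total FPKM per sample also differed between the studies, at 455797 to 569885 in isotype control tumors of day 15 and 621233 to 946853 in WT tumors. In the order across studies, levels of the 10 genes and differences in the make-up of the libraries cannot be told apart.

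The 10 genes rose and fell together from tumor to tumor. After the group means were taken off, Spearman's rho of each of the 45 pairs of genes over the 43 tumors lay between 0.62 and 0.97, with a median of 0.87. Each gene against the mean of the other 9 gave 0.97 for Cfd, Plin1 and Cidec, 0.96 for Adipoq, 0.93 for Retn and Fabp4, 0.90 for Lep, 0.89 for Thrsp, 0.88 for Lpl and 0.76 for Pparg. The genes of a tumor share its library, and the correlations are a description of the tumors from which the genes were chosen. Without PD-1 Ab tumor 5 of day 15 and tumor 8 labelled PD-1cKO, the tumors farthest from the rest, Pearson's r stayed between 0.78 (Lpl) and 0.96.

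The proportions among the genes were not the same in all groups. Relative to Adipoq, Thrsp was at 0.38, 0.367, 0.564, 0.289 and 0.137 in isotype control tumors of day 15 and at 0.807, 1.87, 1.08, 1.02 and 1.09 in PD-1 Ab tumors of day 15. The ratio was higher in all 5 treated tumors, tumor 5 with its low levels included. At day 11 the ratio was 0.0198 to 0.337 with isotype control and 0.0375 to 0.253 with PD-1 Ab. Both arms of day 15 thus had higher medians (0.367 and 1.08) than both arms of day 11 (0.112 and 0.077). All tumors of day 15 share a run of sample identifiers that holds no tumor of day 11, so day and run cannot be told apart here.

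Between the studies, leptin differed in proportion. Lep relative to Adipoq had a median of 0.0534 (range 0 to 0.227) over the 20 tumors of the antibody study. Over the 20 tumors of the knockout study it was 0.208 (0.0127 to 0.352), so the ranges overlapped. Some ratios rest on few fragments, such as the 0.227 of isotype control tumor 4 of day 15, with Lep at 0.122 and Adipoq at 0.541 FPKM. Lep relative to Adipoq also differed by group. It was between 0.0322 and 0.0457 in all 5 PD-1 Ab tumors of day 15 and was 0.187 at the median of tumors labelled PD-1cKO and 0.213 in WT tumors. Retn relative to Adipoq differed the other way over all tumors, with medians of 0.529 and 0.256. By group, its medians at day 11, 0.29 (isotype control) and 0.301 (PD-1 Ab), were near 0.321 in WT tumors and 0.225 in tumors labelled PD-1cKO. Those of day 15 were higher, at 0.591 (isotype control) and 0.579 (PD-1 Ab). The medians of both studies were closer for Cfd (8.55 and 7.69), Fabp4 (7.05 and 6.23) and Plin1 (0.436 and 0.679). Study, depth and day cannot be told apart in these ratios.

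For Lpl and Pparg the medians lay farther apart. The median ratio to Adipoq was 2.12 in the antibody study and 11.1 in the knockout study for Lpl, the widest gap in proportion of the 9 genes, and 0.332 and 1.10 for Pparg. The highest Lpl ratio of the knockout study, 39.4, was in tumor 4 labelled PD-1cKO. In culture Lpl was present without Adipoq, at 0.638 to 0.928 FPKM, while Pparg was at 0.

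**Figure D3:**
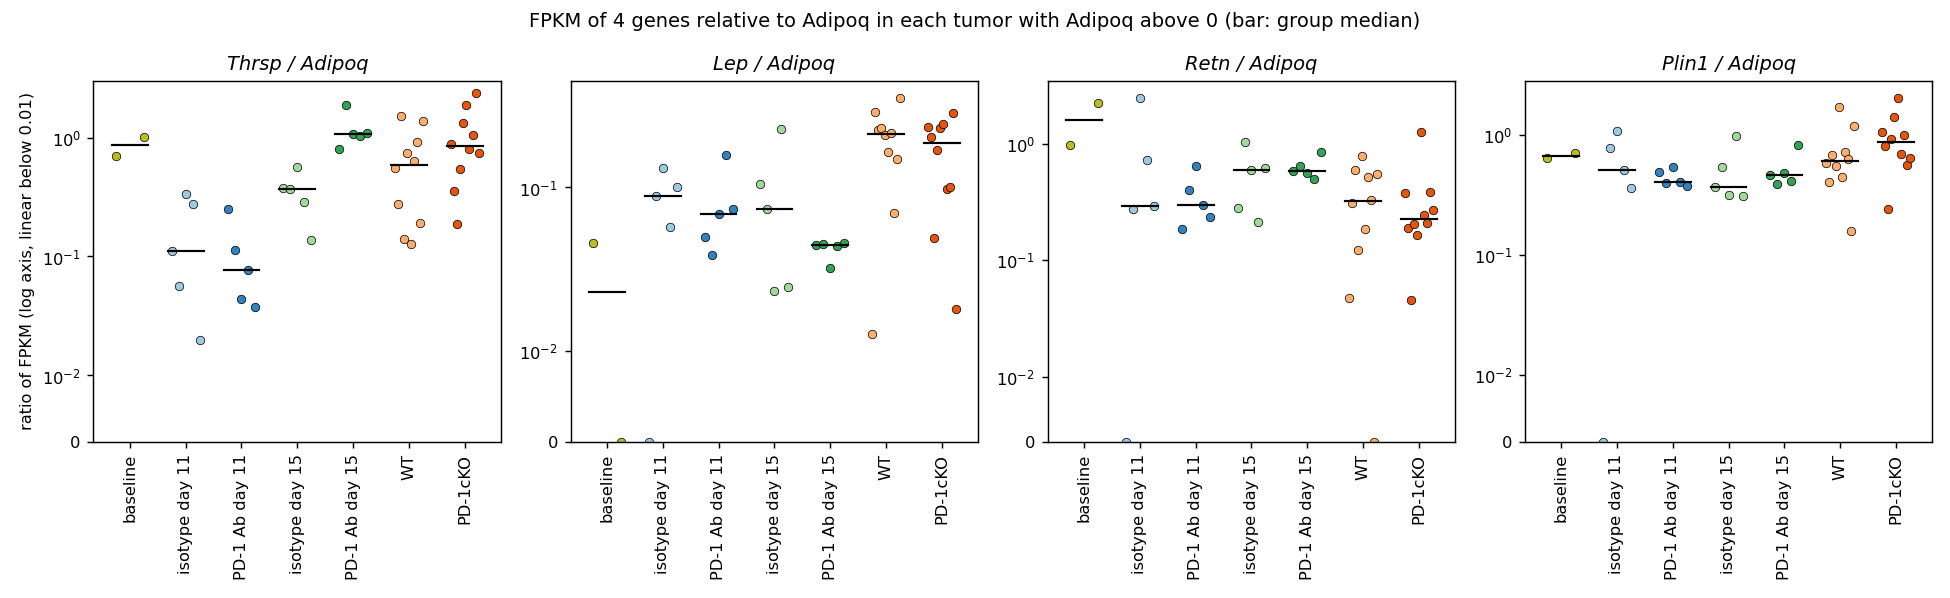
FPKM of Thrsp, Lep, Retn and Plin1 relative to Adipoq in each tumor with Adipoq above 0 (log axis, linear below 0.01), with a bar at the group median; the last 2 groups are WT tumors and tumors labelled PD-1cKO. Thrsp/Adipoq of PD-1 Ab tumors of day 15 (0.807 to 1.87) lies above that of isotype control tumors of day 15 (0.137 to 0.564). Lep/Adipoq has a higher median in the knockout study (0.208) than in the antibody study (0.0534), with ranges that overlap.

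A list of 67 other adipocyte genes, which shares no gene with the 10, was tested in the same fits. It too was chosen with earlier results of these data known. Its mean followed that of the 10 genes over the 43 tumors, with a rho of 0.97 after the group means were taken off. The p-values and counts of the list, here and below, are therefore no independent support for the pattern of the 10 genes. At day 15, 7 of the 62 tested genes rose with PD-1 Ab and 0 fell, where 5.03% of all genes rose, 44 had an unadjusted p under 0.05, and the median difference was 1.07 against -0.04 for all genes. Genes for fatty acid uptake were among those that rose. Cd36, the fatty acid translocase, rose from 7.39 ± 2.32 to 33 ± 17.1 FPKM (2.01, SE 0.37, adjusted p = 0.00394 in limma), and Acsl1, which activates fatty acids, from 10.3 ± 2.06 to 30.3 ± 10.2 FPKM (1.49, SE 0.25, adjusted p = 0.00243). Aqp7, the glycerol channel of adipocytes, rose from 0.113 to 1.63 FPKM (2.89, SE 0.58, adjusted p = 0.00601). The groups had n = 5 each, and the groups of Cd36 and Acsl1 did not overlap.

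Among the transcription factors of the list, Cebpa (C/EBP alpha) rose from 11.3 to 32 FPKM (1.40, SE 0.27, adjusted p = 0.00505) and Nr1h3 (the liver X receptor LXR alpha) from 2.85 to 13 FPKM (2.08, SE 0.26, adjusted p = 0.000967). Mlxipl, the glucose sensor ChREBP, rose from 0.103 to 1.95 FPKM (2.96, SE 0.62, adjusted p = 0.00732) and Aoc3, an amine oxidase of the adipocyte surface, from 1.35 to 9.14 FPKM (2.37, SE 0.52, adjusted p = 0.00934). Of these, Cebpa, Nr1h3, Acsl1 and Cd36 are also genes of myeloid cells. Of 7 genes of lipolysis 0 passed, with Lipe (hormone-sensitive lipase) at 19.8 against 6.31 FPKM (1.49, adjusted p = 0.0134) and Pnpla2 (adipose triglyceride lipase) at 41.2 against 18.6 FPKM (1.09, adjusted p = 0.0295).

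Nor did Adrb3, the adrenergic receptor of adipocytes, at 4.21 against 0.535 FPKM (2.38, adjusted p = 0.0549), Plin4 at 7.06 against 1.6 FPKM (1.99, adjusted p = 0.0845) or Slc2a4, the insulin-regulated glucose transporter, at 3.5 against 0.9 FPKM (1.50, adjusted p = 0.0664). For the makers of fatty acids, Fasn was at 86.7 against 66.1 FPKM (0.33, adjusted p = 0.375) and Scd1 at 200 ± 96.4 against 60.5 ± 5.0 FPKM (1.49, adjusted p = 0.0212). Of 16 genes of lipid synthesis 1 passed, Mlxipl, and their median difference was 0.45, against 1.50 for 9 genes of uptake and transport. The count of 7 genes became 34 without PD-1 Ab tumor 5 and lay between 2 and 4 when any 1 of 8 other tumors was left out, control tumors 1, 2, 4 and 5 and PD-1 Ab tumors 1 to 4.

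In tumors labelled PD-1cKO, 8 of the 60 tested genes of the list were higher than in WT and 1 was lower, where 4.2% of all genes were higher, 36 had an unadjusted p under 0.05, and the median difference was 0.71 against -0.20. Higher were Aoc3, at 8.54 ± 8.47 against 1.6 ± 0.74 FPKM (1.87, SE 0.45, adjusted p = 0.00397 in limma, n = 10 each), Mrap, an accessory protein of melanocortin receptors, at 1.26 against 0.145 FPKM (adjusted p = 0.00376), and Mgll, the monoglyceride lipase, at 8.82 against 1.78 FPKM (1.65, adjusted p = 0.00727). Cebpa was at 33.4 against 10.6 FPKM (1.45, adjusted p = 0.00077), Nr1h3 at 14.3 against 4.68 FPKM (1.37, adjusted p = 0.00181), and Nrg4, a secreted factor of fat, at 1.06 against 0.16 FPKM (1.66, adjusted p = 0.00853).

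Ebf1, a factor of both adipocytes and B cells, and Trarg1 were the others that were higher (1.61 and 1.31). Elovl6, which lengthens fatty acids, was lower, at 3.75 against 9.77 FPKM (-1.66, SE 0.35, adjusted p = 0.00197). Not passing were Lipe (0.91, adjusted p = 0.0334), Pnpla2 (0.95, adjusted p = 0.014), Plin4 (1.60, adjusted p = 0.0797), Slc2a4 (1.09, adjusted p = 0.0643), Cd36 (1.21, adjusted p = 0.0583), Fasn (-0.27, adjusted p = 0.371) and Scd1 (0.34, adjusted p = 0.574). With the identifier run as a covariate, 0 of the 60 genes passed in limma and 41 had an unadjusted p under 0.05, while the difference of Plin4 grew to 3.22, that of Scd1 to 1.97, and that of Fasn turned to 0.73.

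**Figure D4:**
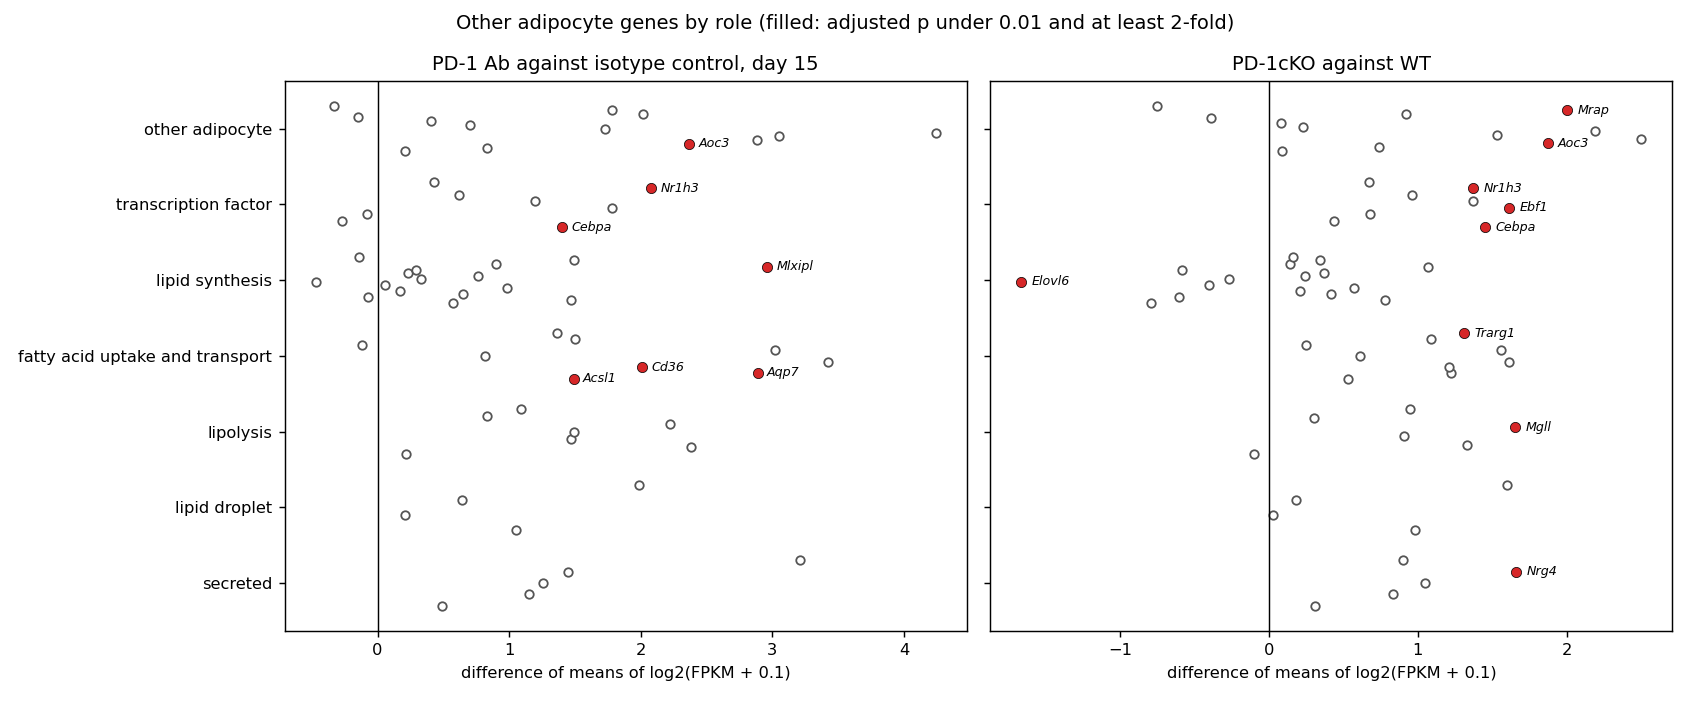
Difference of means of log2(FPKM + 0.1) for the tested genes of the list of 67 other adipocyte genes, by role, for both antibodies compared at day 15 (PD-1 Ab minus isotype control, left) and for tumors labelled PD-1cKO against WT (right); each point is 1 gene, and filled points passed an adjusted p under 0.01 and 2-fold in limma. At day 15, 7 genes passed, all higher; on the right 8 passed as higher and Elovl6 as lower.

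At day 11, 0 of the 56 tested genes of the list passed in limma and 5 had an unadjusted p under 0.05 (median difference 0.54 against 0.26). The difference between days 15 and 11 passed for 0 of 62 genes (7 with an unadjusted p under 0.05), and that between the antibody and the tumors labelled PD-1cKO for 0 of 62 (9 with an unadjusted p under 0.05). The comparisons of the antibody effect of day 15 share its 10 tumors.

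Against the cultures, 21 of 56 tested genes of the list were higher in isotype control tumors of day 15 and 5 were lower, in limma, where 14.2% of all genes were higher. The cultured tumor cells themselves expressed genes of fatty acid synthesis, with Fasn at 105 ± 5.81 FPKM (n = 3) against 66.1 ± 15.9 FPKM in the tumors and Scd1 at 99.9 ± 3.75 against 60.5 ± 5.0 FPKM, both below 2-fold. Elovl6 was lower in the tumors, at 13.3 against 63.8 FPKM (-2.29, adjusted p = 7.62e-06). Adipoq, Plin1 and Cidec, in contrast, were at 0 in all 3 cultures. The cultures and the isotype control tumors of day 15 fall in different runs of sample identifiers, so culture and run cannot be told apart.

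Genes of other tissues around a flank tumor, from lists also chosen with earlier results of these data known, were read in the same pieces. The 10 skeletal muscle genes summed to 2.57 to 3.21 FPKM in isotype control tumors of day 15 and to 3.67, 5.13, 13.7, 3.32 and 97.3 FPKM in PD-1 Ab tumors 1 to 5, so the tumor poorest in adipocyte genes had the most muscle genes. Over the 43 tumors the muscle genes had a rho of -0.02 with the mean of the 10 adipocyte genes after the group means were taken off. It reached 868 FPKM in tumor 5 and 2.91 FPKM in tumor 8 labelled PD-1cKO. At day 15, 2 of the 10 muscle genes rose, Acta1, the actin of skeletal muscle, from 0.061 to 5.35 FPKM (3.98, SE 0.78, adjusted p = 0.00554 in limma) and Myl1, a myosin light chain, from 0.0861 to 2.32 FPKM (3.19, SE 0.70, adjusted p = 0.00872).

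Macrophage genes moved more closely with the adipocyte genes, with a rho of 0.62 over the 43 tumors. The 8 macrophage genes summed to 809 to 1277 FPKM in isotype control tumors of day 15 and to 2602, 3144, 3112, 3051 and 1510 FPKM in PD-1 Ab tumors 1 to 5. PD-1 Ab tumor 5 was the lowest of the treated tumors here as well, and 7 of the 8 genes rose, among them Cd68 from 53.4 to 142 FPKM (1.38, SE 0.19, adjusted p = 0.00106). In tumors labelled PD-1cKO 4 of the 8 rose and the sum was 1366 to 4621 FPKM. The 6 endothelial genes had a rho of 0.49, with 1 of 6 higher at day 15, and summed to 20.1 to 26.3 FPKM in the controls and to 25.9 to 90.2 FPKM with PD-1 Ab. The part of macrophages and endothelium in the levels of Lpl, Fabp4 and Pparg was not tested.

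**Figure D5:**
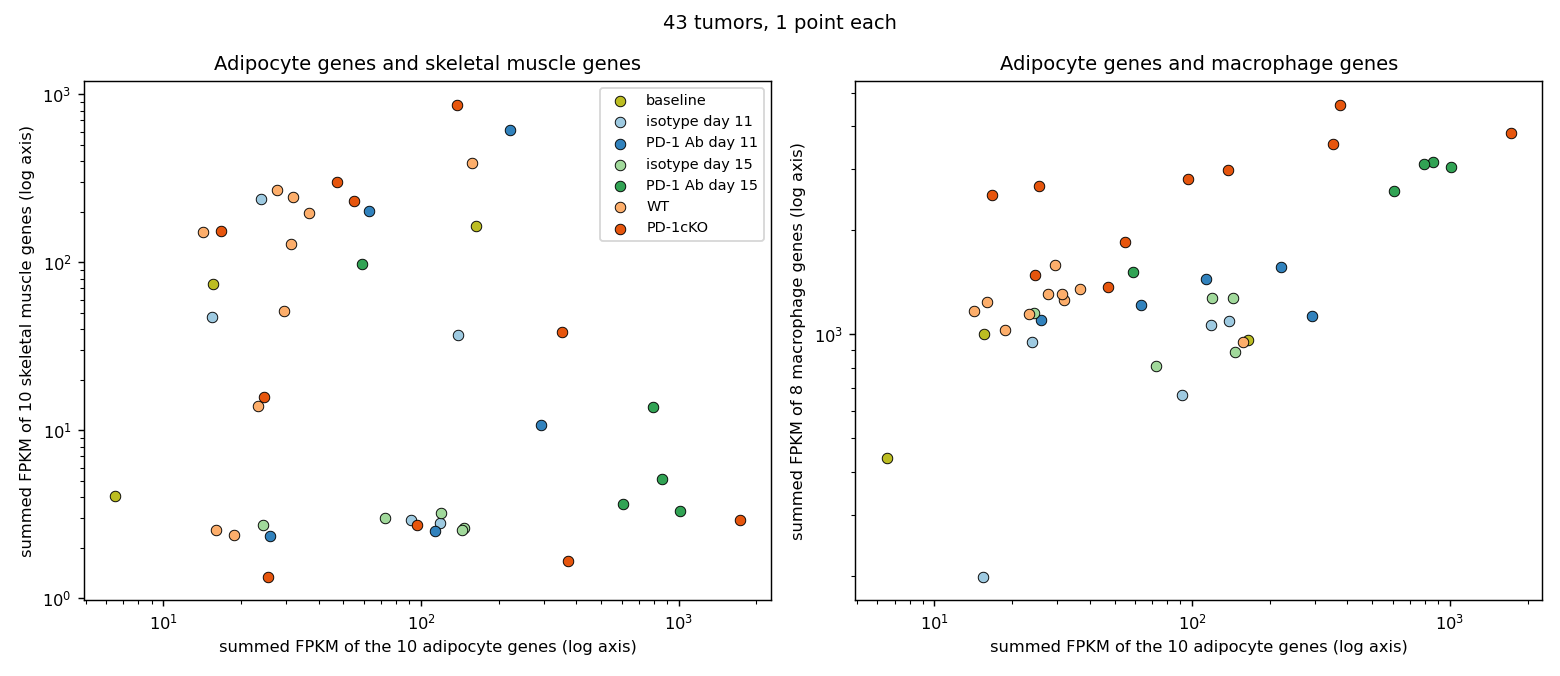
Summed FPKM of the 10 adipocyte genes against that of 10 skeletal muscle genes (left) and 8 macrophage genes (right) in the 43 tumors, 1 point per tumor, on log axes; the group named PD-1cKO is that of the labels. The muscle sum (up to 868 FPKM) has no trend with the adipocyte sum (up to 1729 FPKM) over the tumors, and some tumors, such as WT tumor 8, are high in both, while the macrophage sum tends to be higher where the adipocyte sum is higher, with exceptions such as tumor 10 labelled PD-1cKO (2535 against 16.7 FPKM).

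Progenitor and fibroblast genes had a rho of 0.57. At day 15, 2 of 8 of them rose, Pi16, a gene of adventitial fibroblasts, from 2.17 to 15.6 FPKM (2.48, SE 0.49, adjusted p = 0.00549 in limma) and Dpp4, which marks adipocyte progenitors, from 0.692 to 3.01 FPKM (1.91, adjusted p = 0.00546). In tumors labelled PD-1cKO, Lum, a proteoglycan of collagen fibers, was at 25.2 against 3.93 FPKM (2.02, SE 0.49, adjusted p = 0.00419) and Pi16 at 21.5 against 7.67 FPKM (1.29, adjusted p = 0.00309). Pdgfra, the widely used progenitor marker, was at 35.6 to 38.5 FPKM in the cultured tumor cells themselves and at 8.24 to 44.2 FPKM in the tumors.

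Markers of brown fat, skin, mammary gland and B cells were read as well, and few of them were expressed enough to be tested. At day 15, 0 of 4 brown fat, 0 of 4 keratinocyte, 0 of 1 mammary and 0 of 3 B cell genes tested rose. In tumors labelled PD-1cKO, 0 of 4 brown fat and 0 of 3 keratinocyte genes rose, Dio2, a deiodinase of brown fat, was lower (-1.24), and no mammary or B cell gene was tested. Ucp1, the uncoupling protein that defines brown fat, was at 0 FPKM in 4 of 5 isotype control tumors of day 15, in 2 of 5 PD-1 Ab tumors of day 15 (highest 0.439 FPKM) and in 8 of 10 tumors labelled PD-1cKO, and its highest level was 1.07 FPKM, in a baseline tumor. The brown fat list had a rho of 0.48 with the 10 adipocyte genes. The mammary genes summed to at most 2.95 FPKM, and Wap, the milk whey protein, was at 0 in all 46 samples. Keratinocyte genes summed to 3.18 to 44.3 FPKM and had a rho of -0.10 with the adipocyte genes. B cell genes were highest, at 14.5 FPKM, in a PD-1 Ab tumor of day 15 (rho 0.32).

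Among the 13228 genes whose mean over the tumors reached 1 FPKM, those outside all lists whose pattern over the 43 tumors was most like the mean of the 10 genes were Sncg (rho 0.93), Ephx2 and Cdo1 (0.92), Ces1d (0.91), Slc36a2 and Wfdc21 (0.88), Adig and Lrg1 (0.87), Hp (0.86) and Glul (0.85). These values compare deviations from the group means and are a description. The order was little changed without the 2 highest tumors (10 of 10 genes in the first 10) and with Pearson's r (8 of 10). In all, 42 genes or 0.318% reached a rho of 0.8, and 34 of them were not among the 10.

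Of the 53 other adipocyte genes compared, 14 or 26.4% reached a rho of 0.8, with a median of 0.57 against -0.03 for all genes. Nothing is read from this share, since the list was chosen with earlier results of these data known. Pck1, Mgll and Gpd1, enzymes of glycerol and monoglyceride metabolism, were at 0.95, Plin4 and Car3 at 0.93 and Lipe at 0.92. Scd1 was at 0.82 and Fasn at 0.46. Acly (0.13), Acaca (0.06), Elovl6 (-0.13) and Cebpb (-0.19) showed little of the pattern, and the cultured cells express Elovl6.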

How the data were processed

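Total RNA was depleted of ribosomal RNA, made into libraries with a stranded kit and sequenced as paired reads of 50 bases. As deposited, the authors' values are FPKM per Ensembl gene, aligned with OSA in Array Studio to the mouse genome B38 (GRCm38), with no counts. Symbols matched 99.1% of the 48795 genes. Columns of no sample were absent (0). The 10 genes and all gene lists were chosen with earlier results of these data known.

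Differences were fitted on log2(FPKM + 0.1) for genes whose mean reached 0.5 FPKM in a group of the comparison, with limma 3.58.1 (R 4.3.3), a trended prior and Benjamini-Hochberg adjustment over all genes tested. Called genes had an adjusted p under 0.01 and at least a 2-fold difference. These scripts were tested on simulated data. Since nothing states that tumors of a group were independent beyond their labels, p-values measure the spread between these samples.

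Depth was estimated from 28162 genes with 1 transcript, of whose low values 38.3% to 88% per sample (median 81.5%) lay within 0.05 fragment of a whole number, so it is approximate and no count test was run. A gene at 0 was given a limit of 3 fragments. Correlations used log2 values with the group mean taken off. Named by rule were the 10 genes, Lipe, Pnpla2, Plin4, Adrb3, Slc2a4, Cebpa, Fasn, Scd1, Cd36 and Ucp1, the 5 highest and 5 lowest called genes of the lists whose mean reached 1 FPKM in each treatment comparison, and the 10 genes outside the lists most like the 10 by Spearman's rho. The other named genes were chosen after their values were seen. Alternatives changed the pseudocount, filter, scaling, prior, weights, samples fitted, identifier run, block and limits, and left out each replicate. Python 3.11.15 with pandas 2.3.3, scipy 1.17.1 and matplotlib 3.10.9 was used for the rest.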

Additional observations from a re-analysis of the deposited data

Results flagged for a closer look

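Each of the 10 genes was read in the 6 groups of 5 or 10 tumors for a sample whose gap to its nearest neighbour was large against the range of the group, by Dixon's criterion, which 21 of 60 such readings met. The criterion flags about 5% of readings by chance where values are normally distributed. FPKM were read without a log and are skewed, with Adipoq at a median of 2.64 and a highest level of 86.2 in tumors labelled PD-1cKO, so that rate does not apply. Nothing is read from the count, since the genes were chosen for levels that differ between tumors and move together. The readings gather in few tumors.

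Tumor 8 labelled PD-1cKO was far above the other 9 for 8 genes. Adipoq was at 86.2 FPKM where the next tumor had 17.3, Lep at 8.73 (next 1.69), Cfd at 923 (next 168) and Retn at 17.8 (next 4.2). Plin1 was at 84.8 FPKM (next 11.9), Cidec at 118 (next 14.8), Fabp4 at 133 (next 30.9) and Thrsp at 89.6 (next 13.9). Lpl and Pparg did not pass, since tumors 4 and 7 were high as well.

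WT tumor 8, the tumor of that group with the most muscle genes (388 FPKM), was far above the other 9 WT tumors for 8 genes. Its library differed too, with the highest mitochondrial share (3.79%), the lowest total FPKM (621233) and the lowest depth (22.3 units) of the WT group. The part of either in its levels was not tested. Adipoq was at 8.42 FPKM (next 1.43), Cfd at 77.9 (next 9.37), Retn at 2.8 (next 0.484) and Plin1 at 5.23 (next 1.05). Cidec was at 7.49 FPKM (next 1.11), Fabp4 at 27 (next 9.29), Thrsp at 7.71 (next 1.22) and Pparg at 2.35 (next 1.16).

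In the antibody study 5 readings passed. Lep was high in PD-1 Ab tumor 4 of day 11, at 2.72 FPKM (next 0.458), and in isotype control tumor 1 of day 15, at 0.718 (next 0.168). Thrsp was high in isotype control tumor 4 of day 11, at 1.68 FPKM (next 0.334). Fabp4 was low in PD-1 Ab tumor 5 of day 15, at 18.5 FPKM (next 166), and Pparg was low in isotype control tumor 4 of day 15, at 0.79 (next 1.28).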

How the results depend on the processing

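The sign of each of the 10 genes' differences held under every alternative at day 15, in tumors labelled PD-1cKO and against culture. At day 11 it turned for Pparg with median-of-ratios, upper-quartile or protein-coding scaling (-0.06, -0.08 and -0.05) and for Retn and Thrsp with array weights (-0.04 and -0.20). With the identifier run as covariate 2 of 10 genes were above 0 there, with Lep at 0.00 and Adipoq (-0.19), Cfd (-0.51), Retn (-0.58), Plin1 (-0.14), Cidec (-0.04), Fabp4 (-0.09) and Thrsp (-0.19) below, and without isotype control tumor 1 the lowest difference was 0.00. In all, 407 of 418 values moved by less than the spread, and the others were Adipoq (3.49) and Fabp4 (2.16) in tumors labelled PD-1cKO with the identifier run as covariate and 9 genes against culture with log2(FPKM + 1), at most 5.00. Of the other adipocyte genes, 7 were called at day 15. The count was 2 with no filter, 4 with no trend, 31 with array weights, 30 at an adjusted p under 0.05 with no fold limit, and 2 to 34 when 1 replicate was left out. With the replicate number as a block it was 2, but same-numbered tumors correlated at only -0.209 to 0.16, so the numbers pair no samples. In tumors labelled PD-1cKO against WT, 9 were called, against 5 with no filter, 26 with the looser limit, 0 with the identifier run as covariate, 5 without tumors 4 and 8 (chosen after seeing the data) and 6 to 13 when 1 replicate was left out. Against culture 26 became 14 with log2(FPKM + 1), 45 with the looser limit and 18 to 27 when 1 replicate was left out. The difference between days gained 9 genes with array weights, and that between antibody and tumors labelled PD-1cKO gained 6, and 1 with the looser limit. Over all genes, 799 were called at day 15 (375 to 1534 when 1 replicate was left out) and 1217 in tumors labelled PD-1cKO (743 to 1871, and 0 with the identifier run as covariate). Where a change in a count has no stated cause, the cause was not tested. Depth limits the low values, such as Lep with 3 to 85 fragments in the tumors of day 15 and Retn with 1.3 and Thrsp with 2.19 in isotype control tumor 4.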
